A study of Mus musculus with 6 samples.

Results

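The genes described here are 10 genes of early and recycling endosomes: Rab4a, Rab4b, Rab5a, Rab5b, Rab5c, Rab11a, Rab11b, Rabep1, Rab11fip2 and Rab11fip5. Their members are all probe sets of the deposited table whose platform annotation names exactly 1 of these genes, which gave 21 probe sets of the 45037 that are not controls, for 10 of the 18193 genes so named. Each was compared in left ventricle between mice without Akt2 and wild type mice, with 3 arrays of each genotype. The knockouts (akt2-/-) carried a targeted disruption of the gene and had been backcrossed to C57BL/6, the strain of the wild types. All mice were males aged 12 to 16 weeks, and the labels name no drug or surgery. The labels limit neither the disruption nor the RNA to a cell type, so the values are those of the whole ventricular wall. No source used here says whether the animals were littermates or whether each array held a separate animal. A p-value therefore covers the spread between these arrays, which may be technical.

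Small GTPases of the Rab family mark membrane compartments and, when bound to GTP, recruit effector proteins that move, tether or fuse vesicles. Rab5 acts on early endosomes, where internalised receptors arrive. Rab4 serves the fast route from there back to the plasma membrane, and Rab11 the slower route through the recycling endosome. In muscle these routes carry the transferrin receptor and the insulin-responsive glucose transporter Slc2a4, and the kinase Akt2 acts upstream of the movement of Slc2a4 to the surface.

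The arrays gave 1 linear signal for each probe set, computed by the MAS5 algorithm from the probes that match a transcript and their mismatched partners. Tests were made with limma on log2(signal + 21.7), over the 22519 probe sets at or above the median mean signal, and adjusted p-values are over all of these. Of the members, 18 probe sets passed this filter, with at least 1 for every gene, and 3 dim ones are described by their signals. The number of arrays limits the precision. The targeted gene checked the labels: the brightest Akt2 probe set gave 478, 395 and 255 in knockouts 1 to 3 against 2363, 2561 and 2505 in wild types 1 to 3. All 6 marker genes of ventricular myocytes that were looked up, Myh6, Myl2, Tnnt2, Actn2, Ryr2 and Mybpc3, passed the filter.

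In each genotype array 1 was unlike arrays 2 and 3, which bears on every result. The 18S ribosomal RNA controls had a median signal of 82330 in wild type 1 and 57275 in knockout 1, and of 152.7 to 446.7 elsewhere. For the poly-A spike-in controls it was 64.5 and 44.5, and 448.2 to 638.9 elsewhere. Each genotype holds 1 of these arrays. Values are therefore also given within the replicate 1 pair and within replicates 2 and 3, and from a fit with the replicate 1 arrays as a block. The replicate 1 arrays were not alike in full: the median signal was 167.2 in wild type 1, 134.3 in knockout 1 and 88.4 to 91.2 elsewhere. The block takes the same difference for both.

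Rab4a, a GTPase of the fast recycling route, stood higher in the knockout, and it was the only gene of the 10 whose knockout arrays all lay above all wild type arrays. Its brighter probe set, 1449048_s_at, had signals of 358, 156 and 168 in wild types 1, 2 and 3. In knockouts 1, 2 and 3 it had 614, 606 and 656. The knockout arrays lay close together, and wild type 1 was more than the other wild type arrays but still well below every knockout. The second probe set, 1418341_at, had 123, 207 and 205 in the wild type and 385, 633 and 688 in the knockout. Here the replicate 1 arrays were the lowest of their genotype on both sides, and again the genotypes did not overlap. The suffix _s_at marks probes that can match more than 1 transcript, so the first probe set may include signal from others. More cells of a type and more RNA per cell cannot be told apart in whole tissue.

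For 1449048_s_at the mean signal was 625 ± 27.1 (SD, n = 3) in the knockout and 227 ± 113 (SD, n = 3) in the wild type, a ratio of 2.75. On the log2(signal + 21.7) scale the difference was 1.47 (SE 0.31, 95% interval 0.73 to 2.21). For 1418341_at the means were 569 ± 162 and 178 ± 47.8, a ratio of 3.19 and a log2 difference of 1.55 (SE 0.30, interval 0.84 to 2.26). These are large for this comparison: 15 of all 22519 probe sets (0.0666%) had a log2 difference at least as high as the smaller of the Rab4a values. The difference between the log2 differences of both probe sets, -0.08, gave an exact permutation p of 1 (two-sided, n = 3 each).

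**Figure D1:**
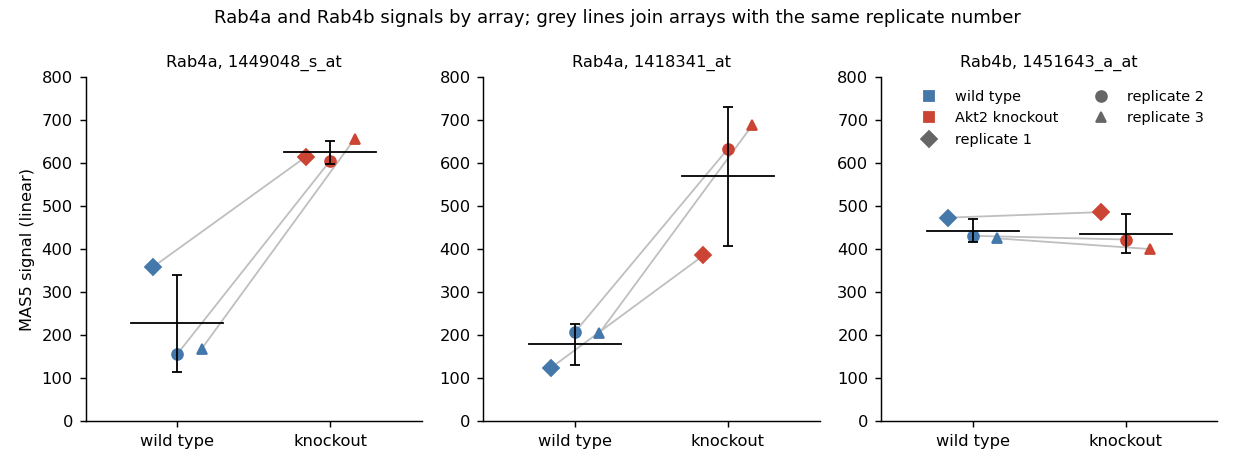
MAS5 signal (linear) of both Rab4a probe sets and of the Rab4b probe set in each array, by genotype, with the mean and SD (n = 3) in black and grey lines between arrays of the same replicate number. Both Rab4a probe sets are higher in the knockout for every replicate number, while Rab4b stays between 399.9 and 485.9 in all 6 arrays.

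In limma without a block neither Rab4a probe set passed the threshold of 0.05. The unadjusted p was 0.00240 for 1449048_s_at and 0.00138 for 1418341_at, and the limma adjusted p was 1.00 for both. No probe set of the 22519 passed in that fit, a background of 0%, and 453 (2.01%) had an unadjusted p under 0.05. The members with an unadjusted p under 0.05 were 2 of the 18 tested, both of Rab4a. With the replicate 1 arrays as a block, 1418341_at had the second-lowest p of all probe sets and an adjusted p of 0.0849, and 1449048_s_at had 0.559. That fit called 1 probe set in all (0.00444%) and gave 1750 (7.77%) an unadjusted p under 0.05, again with 2 members, both of Rab4a. With a trended and robust variance estimate added to that block, limma called 13 probe sets (0.0577%), and 1418341_at was among them (adjusted p = 0.0110), so that in this fit Rab4a rose by this probe set. The brighter one missed the threshold there (adjusted p = 0.104). The replicate block gave adjusted p-values of 0.827 and 0.343 and an unadjusted p under 0.05 for 2 members, against 5.63% of all probe sets, and the mean over both probe sets, tested without a block at the level of genes, had a log2 difference of 1.51 (SE 0.18, adjusted p = 0.240).

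The probe sets of Rab4a differed in how the genotype difference held across the arrays. For 1449048_s_at the log2 difference was 0.74 within replicate 1 and 1.83 within replicates 2 and 3. For 1418341_at it was 1.49 and 1.58. The interaction of genotype with these sets of arrays had an unadjusted limma p of 0.00390 and an adjusted p of 0.0898 for the first, and 0.675 and 0.836 for the second. Over all probe sets 20.9% had an unadjusted interaction p under 0.05 and 0.635% an adjusted one. Each genotype holds 1 replicate 1 array, so every interaction p given here covers only the spread within replicates 2 and 3. The spread between arrays like replicate 1 is not measured by it. In either set of arrays, and for both probe sets, Rab4a was higher in the knockout. In replicates 2 and 3 alone both probe sets had a limma adjusted p of 0.175, and the genotypes were apart in 10 of the 18 members, as in 42% of all probe sets.

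Among the cell type markers looked at, those of mast cells had summed signals that did not overlap between the genotypes. The sum over 4 mast cell genes (Cpa3, Kit, Mcpt4 and Cma1) was 411.5 to 554.9 in the wild type and 256.9 to 265.7 in the knockout, with Cpa3, a mast cell carboxypeptidase, at 51.1 ± 14.5 in the knockout against 182 ± 57.5, and Kit, the other tested one, at 117 ± 45.4 against 114 ± 20.9. Cpa3 was lower in every knockout than in any wild type, and Kit overlapped. The summed signals of 8 other lists, of ventricular and atrial myocytes, fibroblasts, endothelial cells, smooth muscle and pericytes, macrophages, erythroid cells and skeletal muscle, overlapped. All 4 atrial myocyte genes had higher means in the knockout, the direction of Rab4a, with a median log2 difference of 0.54, from 0.13 for Nppa to 1.10 (SE 0.93) for Myl7, and each overlapped. All 5 endothelial genes were lower, with a median of -0.20, and in 3 of them (Vwf, Tek and Pecam1) every knockout lay below every wild type, where 7.46% of all genes were apart in either direction. All 5 macrophage genes were lower, with a median of -0.16, and each overlapped. The part of these cells in the Rab4a values was not tested.

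Rab4b, the close relative of Rab4a that also serves early endosomes, had signals of 473, 431 and 425 in the wild type. In the knockout it had 486, 422 and 400, and the genotypes overlapped. Its log2 difference was -0.02 (SE 0.17, 95% interval -0.43 to 0.38), and with the replicate 1 arrays as a block the interval was -0.30 to 0.25. The genotype difference of Rab4a exceeded that of Rab4b by 1.49 on the log2 scale for 1449048_s_at and by 1.58 for 1418341_at. In both cases the exact permutation test on the log2 ratio within each array gave p = 0.1 (two-sided, n = 3 each), the smallest p that 3 arrays against 3 allow. In each replicate number the knockout had more Rab4a signal relative to Rab4b than any wild type array.

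The same test was run for both Rab4a probe sets against the brightest probe set of each of the other 9 genes. Of these 18 tests, 16 gave the smallest possible exact p of 0.1, or 0.113 after Benjamini-Hochberg adjustment over the 18. The 18 share the same 6 arrays and the 2 Rab4a probe sets, whose genotypes were already seen to be apart. They describe that separation again and are not independent support for it. The exceptions were the tests of 1449048_s_at against Rab5b (exact permutation p = 0.3) and against Rab11fip2 (0.4), where the ratio in wild type 1 lay above that in at least 1 knockout. Over all 6 arrays the log2 difference of Rab4a was the higher one in each of the 18, by 1.10 to 1.61. Within each replicate number it was also the higher one, Rab5b included (0.65, 1.70 and 2.22 for 1449048_s_at in replicates 1, 2 and 3), except for 1449048_s_at against Rab11fip2 in replicate 1, at -0.067.

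The 3 Rab5 genes, the GTPases of early endosome entry and fusion, overlapped between the genotypes. Rab5a had 1568, 2629 and 2615 in the wild type against 2035, 2567 and 2361 in the knockout. Its log2 difference was 0.06 (SE 0.26, 95% interval -0.54 to 0.67), or 0.37 within replicate 1 and -0.09 within replicates 2 and 3. The replicate 1 arrays were the lowest of each genotype, by more than the genotypes differed. Rab5b had 231, 449 and 649 in the wild type and 248, 492 and 492 in the knockout, again with replicate 1 lowest. Its difference of -0.06 carried a wide interval of -1.07 to 0.96, which narrowed to -0.47 to 0.35 with the replicate 1 arrays as a block. A dim second probe set of Rab5b, 1437446_at, ran from 84.2 to 120 in the wild type and from 67.9 to 113 in the knockout.

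Rab5c was the Rab5 gene with the largest gap between the sets of arrays. It had 711, 1001 and 1123 in the wild type and 1015, 857 and 827 in the knockout, so that it was higher in the knockout in the replicate 1 pair and lower in replicates 2 and 3. The log2 difference was 0.50 in the former and -0.33 in the latter, and pooled it was -0.05 (SE 0.23). The interaction had an unadjusted limma p of 0.0130 and an adjusted p of 0.142. In replicates 2 and 3 alone the unadjusted limma p of Rab5c was 0.0497 and the adjusted p 0.537, where 9.31% of all probe sets had an unadjusted p under 0.05.

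**Figure D2:**
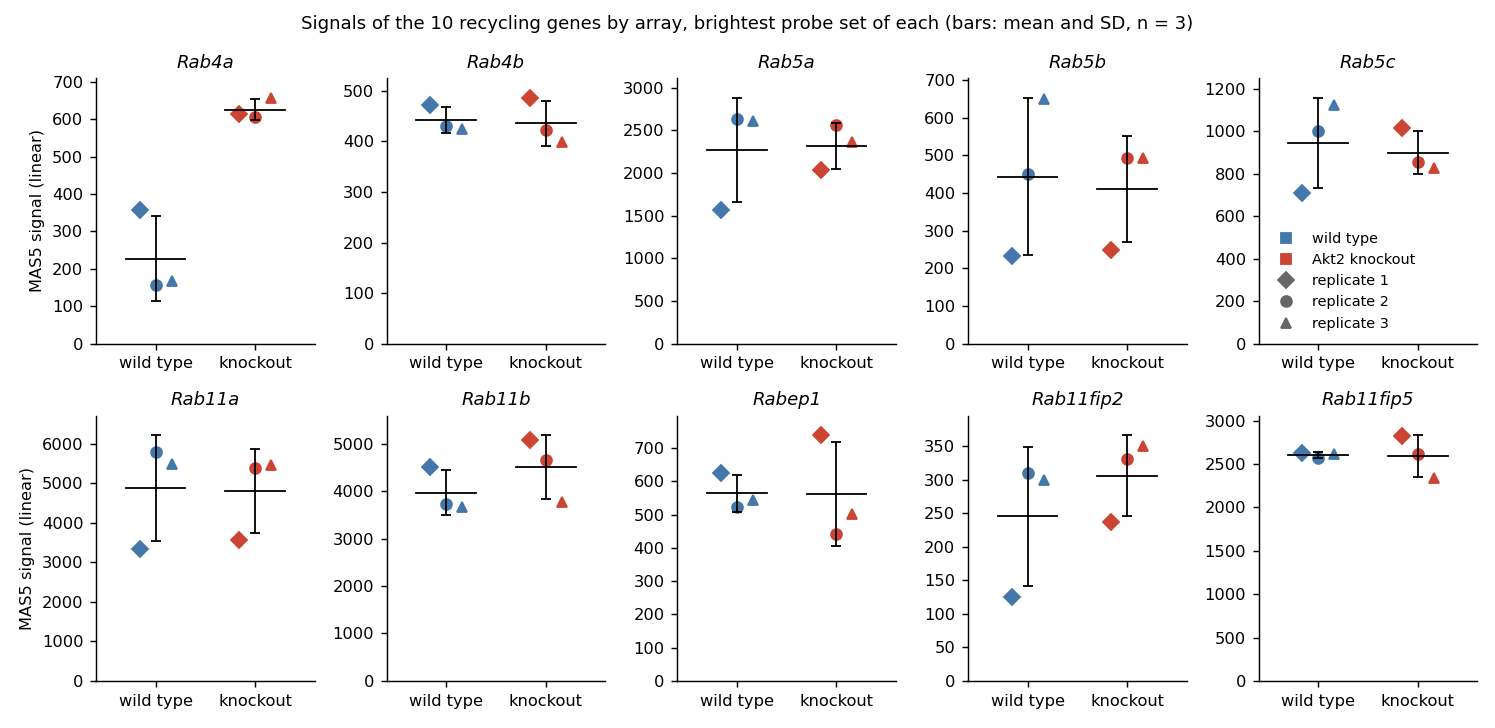
MAS5 signal (linear, each axis from 0) in every array for the brightest probe set of each of the 10 genes, with the mean and SD (n = 3) of each genotype in black and the replicate number as the marker shape. The genotypes are apart for Rab4a and overlap for the other 9 genes; for Rab5a, Rab5b, Rab11a and Rab11fip2 the replicate 1 arrays (diamonds) are the lowest.

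Rab11a and Rab11b, the GTPases of the recycling endosome, also overlapped. The brightest Rab11a probe set, 1449256_a_at, had 3333, 5787 and 5498 in the wild type and 3575, 5383 and 5466 in the knockout. Its log2 difference was 0.00 (SE 0.29), and 0.10 and -0.06 in the replicate 1 pair and the others. The second Rab11a probe set, 1434549_at, had 826, 2504 and 2176 against 1028, 2539 and 2218. In both, the replicate 1 arrays were the lowest of each genotype, by more than the genotypes differed. Their signals correlated over the 6 arrays with a Pearson r of 0.99, a description of arrays that share the replicate 1 difference. With the replicate 1 arrays as a block, the 95% intervals of the genotype difference were -0.28 to 0.27 and -0.22 to 0.46.

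Rab11b had its brightest probe set, 1423448_at, at 4518, 3721 and 3669 in the wild type and 5085, 4656 and 3768 in the knockout. Each knockout was above the wild type of the same number, but knockout 3 was below wild type 1. The log2 difference was 0.18 (SE 0.20), close in both sets of arrays at 0.17 and 0.18, and its block interval was -0.14 to 0.49. A second probe set, 1435253_at, had 307, 372 and 271 against 254, 427 and 382, where knockout minus wild type was -0.25 on the log2 scale within replicate 1 and 0.32 within replicates 2 and 3. The dimmest, 1439508_at, was below the filter, between 13.4 and 165 in the wild type and between 74.7 and 148 in the knockout.

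Rabep1 encodes rabaptin-5, an effector that binds both Rab5 and Rab4 and forms a complex with a Rab5 exchange factor. All 4 of its probe sets were tested, and in all 4 the genotypes overlapped. The brightest, 1443856_at, had 626, 522 and 543 in the wild type and 738, 442 and 502 in the knockout (log2 -0.04, SE 0.23). The others had log2 differences of 0.08, 0.20 and 0.08. The largest of these, 0.20 (SE 0.22) for 1421305_x_at, came from the replicate 1 pair at 0.59 and stood at 0.00 in replicates 2 and 3. Its suffix _x_at marks probes similar to other sequences.

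The Rab11 family interacting proteins link Rab11 to motors and membrane. Rab11fip2, which binds myosin Vb as well as Rab11, had the highest log2 differences of the tested members after Rab4a. They were larger in the replicate 1 pair than in the other arrays. Its brightest probe set, 1455169_at, had 126, 311 and 300 in the wild type and 237, 331 and 350 in the knockout. The second, 1434948_at, had 65.8, 273 and 250 against 168, 315 and 263. In both the replicate 1 arrays were lowest and wild type 1 the lowest of all. The log2 differences were 0.37 (SE 0.36) and 0.46 (SE 0.50), combining 0.81 and 1.11 within replicate 1 with 0.15 and 0.13 within replicates 2 and 3. Without wild type 1 they were -0.01 and -0.11, and without knockout 1 they were 0.53 and 0.69. Leaving out either array leaves the low replicate 1 arrays unequal between the genotypes, so these values mix genotype with the replicate 1 difference. The unadjusted limma p with the replicate 1 arrays as a block was 0.0728 and 0.0924, and the interaction with the sets of arrays had adjusted p-values of 0.173 and 0.131. Another probe set, 1432028_at, was below the filter, at 20.6, 93.4 and 87.0 against 127, 89.7 and 54.5.

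Rab11fip5 is an interacting protein of class I, like Rab11fip2. Its brighter probe set, 1434314_s_at, had 2632, 2569 and 2614 in the wild type and 2819, 2613 and 2341 in the knockout (log2 -0.01, SE 0.17). The second, 1427405_s_at, had 817, 643 and 839 against 694, 688 and 710 (log2 -0.12, SE 0.18). The genotypes overlapped in both, and neither stood apart in the replicate 1 arrays (limma adjusted p = 0.538 and 0.740).

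Read together, the 16 tested probe sets of the other 9 genes had a median log2 difference of 0.07, with 9 above and 7 below 0, where the median of all 22519 probe sets was 0.01. They ran from -0.12 to 0.46, and their lowest unadjusted limma p was 0.335 without a block, 0.0728 with the replicate 1 arrays as a block and 0.114 with the replicate block. The median size of the difference, whatever its sign, was 0.08 in them and 0.15 over all probe sets. All knockout arrays lay on 1 side of all wild type arrays in 2 members, both of Rab4a, and in 1644 (7.3%) of all probe sets, of which 820 (3.64%) had the knockout above.

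A p that misses the threshold does not show that these genes were alike in both genotypes, so the intervals are given. Without a block the 95% interval of the difference lay within 2-fold in either direction for 12 of the 16 probe sets, against 69% of all probe sets. With the replicate 1 arrays as a block it did so for 15 of the 16, against 88.1%, the exception being 1434948_at of Rab11fip2 with an upper bound of 1.02. The block intervals of all 16 ended below the estimate of the smaller Rab4a difference, and without a block those of 15 did. That estimate had an interval of its own, 0.73 to 2.21 without a block and 0.88 to 2.06 with it. Some of the 16 intervals overlapped that of Rab4a, as 1434948_at did in both fits. The signs within replicate 1 and within replicates 2 and 3 were opposite in 9 of the 16, where 50% of all probe sets had opposite signs.

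**Figure D3:**
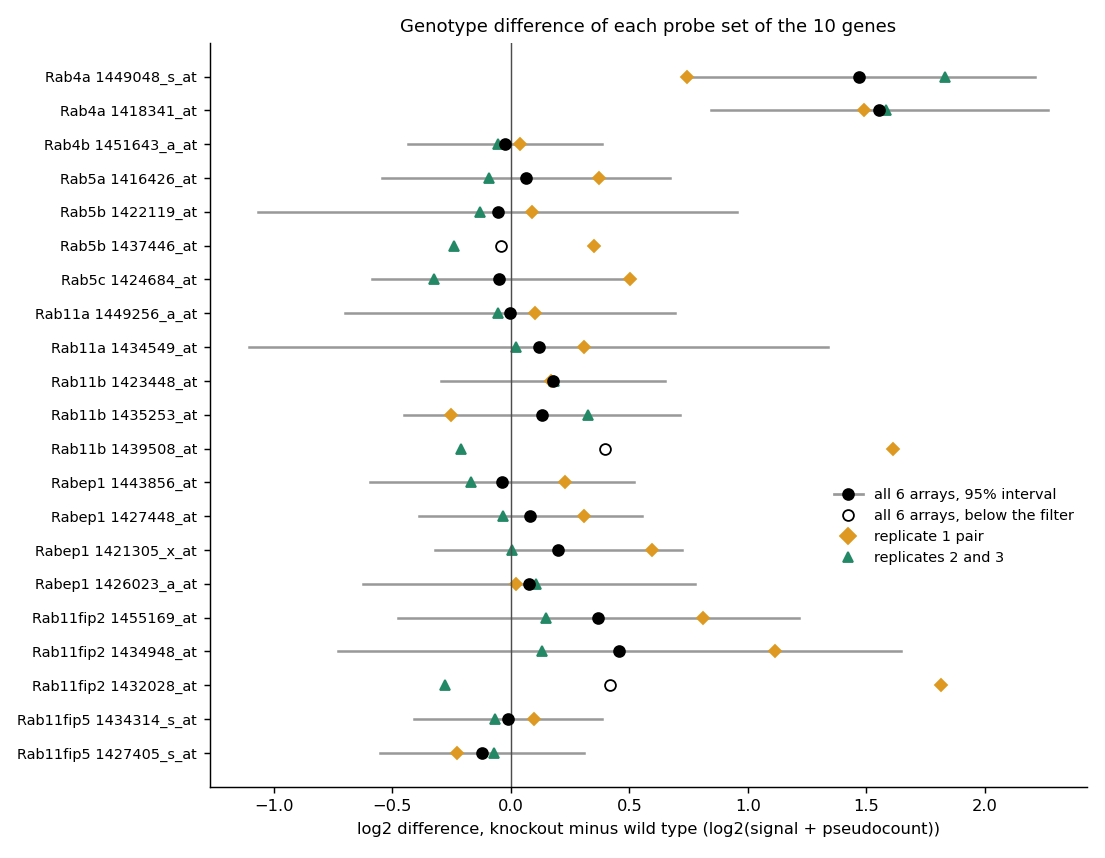
Log2 difference, knockout minus wild type, of all 21 probe sets on the log2(signal + pseudocount) scale: black points are all 6 arrays with the 95% interval of limma without a block, open points are the 3 probe sets below the filter, diamonds the replicate 1 pair and triangles replicates 2 and 3. Both Rab4a probe sets lie to the right of 0 by every measure; the Rab11fip2 diamonds at 0.81 and 1.11 stand away from their triangles at 0.15 and 0.13.

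Where a gene had several tested probe sets, these could be compared on the genotype difference. There were 11 such pairs, and in none did the exact permutation test on the log2 ratio of the pair reach the smallest possible p of 0.1, with p between 0.3 and 1 (two-sided, n = 3 each). Their correlations over the 6 arrays differed widely, as a description: r was 0.99 for the pairs of Rab11a and Rab11fip2, 0.72 for Rab4a, 0.07 for Rab11fip5 and -0.22 for Rab11b. In both pairs at 0.99 the probe sets were low in the replicate 1 arrays.

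The difference between the replicate 1 arrays and the other 4 was larger than that between the genotypes for most of the 10 genes. In limma with genotype in the model, 8 of the 18 tested members differed between these sets of arrays (adjusted p under 0.05), 7 of them lower in replicate 1, against 33.1% of all probe sets and 13.2% lower. The drop reached -1.33 (SE 0.15, adjusted p = 0.00737) for 1434549_at of Rab11a, -1.20 (SE 0.24) for 1434948_at of Rab11fip2 and -1.04 (SE 0.18) for Rab5b. The exception was 1426023_a_at of Rabep1, higher by 0.63 (SE 0.16, adjusted p = 0.0321). For Rab4a the probe sets went opposite ways, -0.70 (SE 0.12, adjusted p = 0.0125) for 1418341_at and 0.51 (SE 0.25, adjusted p = 0.166) for 1449048_s_at. No source used here says what sets replicate 1 apart, and its part in the genotype differences was not tested beyond the block and the values within each set.

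**Figure D4:**
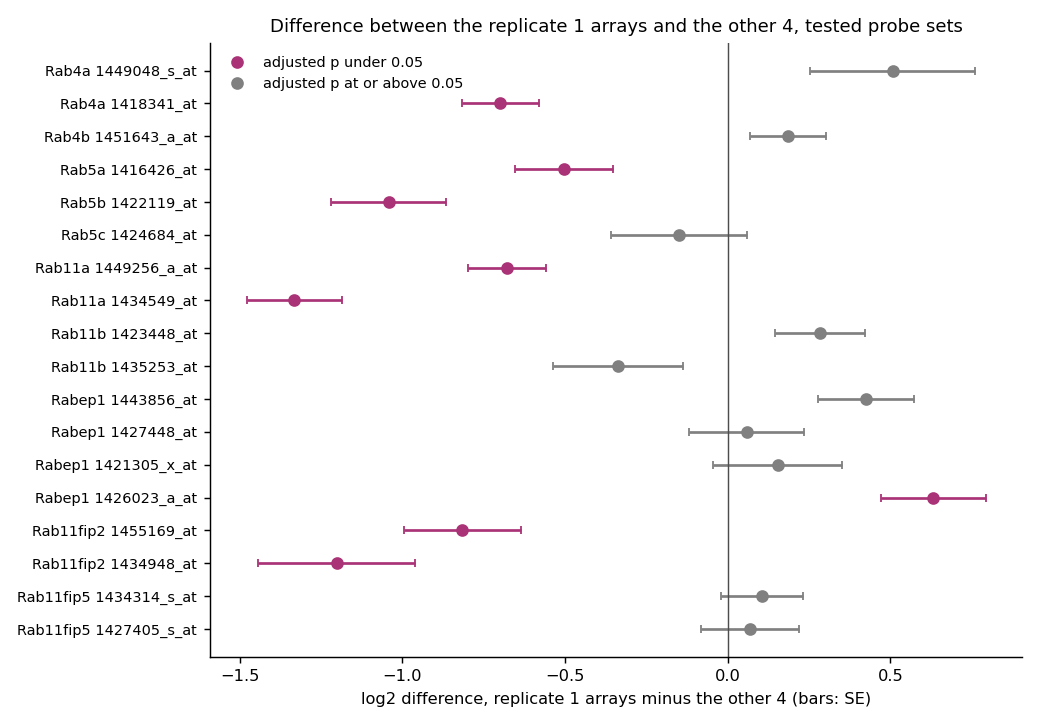
Log2 difference between the 2 replicate 1 arrays and the other 4, with genotype in the limma model, for the 18 tested probe sets (bars are SE, purple an adjusted p under 0.05). Rab11a, Rab11fip2, Rab5a and Rab5b are lower in the replicate 1 arrays, and the 2 Rab4a probe sets lie on opposite sides of 0.

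The partners of these GTPases, their sorting machinery and their cargo were looked at in 4 lists. Each gene was taken at its brightest probe set, and 56 of the 60 genes with a probe set naming them alone were tested among 11075 genes. None passed adjusted over all genes in limma, without a block or with the replicate 1 arrays as a block, a fit that called 1 gene in all (0.00903%). An unadjusted p under 0.05 was seen for 1 of the 56 without a block and 3 with it, against 2.17% and 8.32% of all genes. In 3 of the 56 all knockout arrays lay on 1 side of all wild type arrays, against 7.46% of all genes.

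Of the Rab5 machinery, exchange factors, effectors and related GTPases, 14 genes were tested, 8 higher and 6 lower, with a median log2 difference of 0.01. The median over all genes was also 0.01. The lowest p was that of Vps45, a fusion regulator of the Sec1 family, with 454, 300 and 372 in the wild type and 193, 277 and 336 in the knockout. It overlapped, and its log2 difference of -0.47 (SE 0.25) combined -1.15 within replicate 1 and -0.12 within replicates 2 and 3. Ankfy1, a FYVE-domain effector of Rab5, had 410, 442 and 463 against 351, 375 and 367, all knockouts below all wild types (log2 -0.25, SE 0.15, limma adjusted p = 1.00 and, with the replicate 1 arrays as a block, 0.593). Rin3, an exchange factor of Rab5, and Rabep2, a relative of Rabep1, had 0.29 (SE 0.19) and 0.30 (SE 0.20), and the other tested Rabep2 probe set had -0.04.

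Of the Rab4 and Rab11 machinery 15 genes were tested, 11 higher and 4 lower, with a median of 0.05. Gripap1, which encodes GRASP-1, a Rab4 effector described in neurons, had 736, 547 and 452 in the wild type and 737, 818 and 778 in the knockout. All knockouts were above all wild types, though knockout 1 and wild type 1 were less than 1 signal unit apart. Its log2 difference was 0.44 (SE 0.21), or 0.00 within replicate 1 and 0.66 within replicates 2 and 3 (limma adjusted p = 1.00, block 0.593). The exocyst genes Exoc6 and Exoc6b had 0.22 and 0.12, and Myo5a, a myosin motor of vesicles, -0.20. Other tested probe sets had the opposite sign for all 3, with -0.02 and -0.26 for Exoc6, -0.070 for Exoc6b and 0.70 for 1 of Myo5a.

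Of the sorting, tubule and fusion machinery 19 genes were tested, 6 higher and 13 lower, with a median of -0.03 and a range of -0.18 to 0.18. The lowest p were those of Ehd1 and Ehd2, membrane-bending ATPases, at -0.17 (SE 0.16) and -0.18 (SE 0.18), Snx27, a sorting nexin of recycling, at -0.15, and Vps26b of the retromer at 0.11. Another tested probe set had the opposite sign for Snx27 (0.13) and for Vps26b (-0.24). In none of the 19 genes were the genotypes apart at the brightest probe set, but in a dimmer one of Ehd1 (log2 -0.25) all knockouts lay below all wild types.

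Of the cargo that takes these routes 8 genes were tested, 6 higher and 2 lower, with a median of 0.11. Tfrc, the transferrin receptor, had the largest difference of the 4 lists, and it is the textbook cargo of the Rab4 and Rab11 routes. Its brightest probe set had 3159, 1481 and 1298 in the wild type and 3216, 3496 and 3405 in the knockout. Wild type 1 was close to the knockouts, and the other wild types were far below. The log2 difference was 0.88 (SE 0.33), with a limma adjusted p of 1.00, and of 0.586 with the replicate 1 arrays as a block. It was 0.03 within replicate 1 and 1.30 within replicates 2 and 3, and in 2 other tested probe sets of Tfrc it was -0.34 and -0.48 in the pair and 1.20 and 0.77 in the others. The 3 control probe sets of the array that also read Tfrc had 0.07, 0.51 and -0.06 in that pair and 1.06, 1.06 and 0.80 in replicates 2 and 3. Slc2a4 had 0.24 (SE 0.19), Lrp1 0.13 and Itgb1 -0.10, with -0.14 and 0.09 in other tested probe sets of Itgb1.

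**Figure D5:**
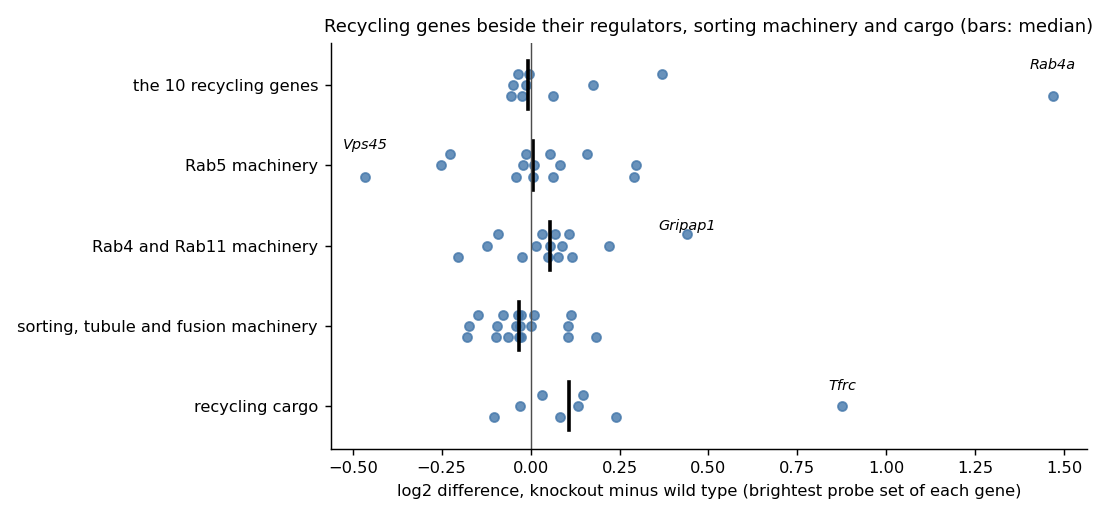
Log2 difference, knockout minus wild type, of the brightest probe set of each gene, for the 10 recycling genes and for the tested genes of 4 lists of partners, sorting machinery and cargo; black bars are medians. Rab4a at 1.47 and Tfrc at 0.88 lie furthest to the right, and the list medians lie between -0.03 and 0.11.

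The genes whose signals ran most like Rab4a over the 6 arrays were named by the Pearson correlation of log2 values with 1449048_s_at, among 11074 other genes. They were Pgap4 (r = 0.99), Phactr1 (0.98), Bckdk (0.97), Rnaseh2c (0.97) and Irx3 (0.97), with n = 6 arrays. All 5 were higher in the knockout by less than Rab4a, with log2 differences between 0.20 for Bckdk and 0.55 for Irx3, and in all 5 wild type 1 was the highest wild type array. The direction and the place of wild type 1 follow from the choice by correlation. Against 1418341_at the 5 closest genes were others, Zfp595, Sfr1, Kpna1, Mapk10 and Rc3h2, with r of 0.97 to 0.98. With 6 arrays and so many genes these are descriptions, without a test. Among the probe sets of the other members, the highest r with 1449048_s_at was 0.63, for 1423448_at of Rab11b. With 1418341_at it was 0.70, for 1455169_at of Rab11fip2. The 2 Rab4a probe sets had an r of 0.72 with each other. By this measure 1418341_at was about as close to 1455169_at as to the other Rab4a probe set. In 1418341_at and 1455169_at alike the replicate 1 arrays were the lowest of their genotype. The brighter Rab4a probe set, 1449048_s_at, had an r of 0.01 with 1455169_at and -0.06 with 1434948_at of Rab11fip2.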

How the data were processed

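Biotin-labelled cRNA of left ventricle from 3 knockout and 3 wild type samples was hybridised, 1 array a sample. The deposited values are intensities, linear MAS5 signals per the submitters' processing notes; no source used here gives its settings. The mean signal without the top and bottom 2% was 500 on each array, so each had been scaled by 1 factor, which was kept. Tests did not use the 64 control probe sets. Log2(signal + 21.7), with the 20th percentile of all values as pseudocount, was tested where its mean reached 6.868, the median, which kept 22519 probe sets, with limma 3.58.1 in R 4.3.3 (lmFit, eBayes, no covariate, Benjamini-Hochberg over all of them). The fit was run on simulated data with the same replicate 1 difference in both genotypes. That checks the code and not how the fit behaves on these arrays. Genes were named from the platform annotation, with 34958 of the 45101 probe sets, controls included, naming 1 gene and 932 several.

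The members, lists and tests were chosen with earlier results of these data known. All members are named, with up to 4 genes a list by lowest p and the 5 genes most like Rab4a. Same-numbered arrays deviated together (correlations of 0.61, 0.45 and 0.39 for numbers 1 to 3), so a replicate block was run. As unlike numbers 2 and 3 gave 0.44 and 0.36, the numbers may reflect the replicate 1 arrays alone. Schwann cell markers had no tested gene.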

Additional observations from a re-analysis of the deposited data

How the results depend on the processing

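Rab4a was higher in the knockout under every alternative that kept its probe sets. Over 18 alternatives the log2 difference of 1449048_s_at was 1.20 to 1.83 and its limma adjusted p 0.104 to 1.00. These 18 include the test of the mean over both Rab4a probe sets. Over 16 alternatives the log2 difference of 1418341_at was 1.25 to 1.80 and its limma adjusted p 0.0110 to 1.00. Same-numbered arrays deviated together, though numbers 2 and 3 hardly more so than unlike ones, so the pairing beyond replicate 1 is not settled. The replicate block changed no call: 0 members and 0 probe sets passed in it, with an unadjusted p under 0.05 for 1267 (5.63%), 2 of them members. The count of probe sets called was 0 without a block, 1 with the replicate 1 arrays as a block and 13 with that block and the trended, robust variance, of which 1 was a member. Members with an unadjusted p under 0.05 were 2; they were 0 under the stricter filter on dim probe sets, which removes both Rab4a probe sets, and 1 in both tests at the level of genes, where Rab4a counts as 1 gene, and 3 in replicates 2 and 3 alone, where Rab5c was lower (9.31% of all probe sets). Members with the genotypes apart were 2, against 0 under the stricter filter, 1 and 1 at the level of genes, 10 in replicates 2 and 3 alone (42% of all probe sets) and 2 to 6 when an array was left out, where 12.3% to 27.9% of all probe sets were apart. The counts were 5 without wild type 1 (27.9%), 6 without knockout 1 (18.8%) and 4 without knockout 3 (13.3%). The interaction with the sets of arrays called 0 members and, with quantile normalization, 1, Rab11fip2 1455169_at (log2 1.09, adjusted p = 0.0438). Without that normalization the interaction called 0.635% of all probe sets. The share with it is not given here, so the call of 1455169_at has no background beside it. No pair of probe sets of a gene reached the smallest exact p with a pseudocount of 1 or 100 or with quantile normalization.

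The other members, whose log2 differences had a limma adjusted p of at least 0.537 in every alternative with a test, had 36 changes of sign among all alternatives. These include both Rab11fip2 probe sets, which went from 0.37 and 0.46 to -0.014 and -0.11 without wild type 1. Leaving out an array makes the share of replicate 1 arrays unequal between the genotypes. Changes of sign in those alternatives can therefore include the replicate 1 difference. Median scaling, which moves the median of all probe sets from 0.01 to 0.10, turned Rab4b to 0.068, Rab5b to 0.036, Rab5c to 0.043, Rab11a to 0.089, Rabep1 to 0.057 and Rab11fip5 to 0.081. Quantile normalization turned Rab5b to 0.032. In replicates 2 and 3 alone Rab5a was -0.090 and Rabep1 1427448_at -0.032. The mean over probe sets gave Rab11a 0.057 and Rabep1 0.081. Leaving out an array in turn gave Rab4b 1451643_a_at -0.10 to 0.032, Rab5a 1416426_at -0.18 to 0.19, Rab5b 1422119_at -0.44 to 0.26, Rab5c 1424684_at -0.24 to 0.084, Rab11a 1449256_a_at -0.26 to 0.20, Rab11a 1434549_at -0.37 to 0.52, Rab11b 1435253_at -0.0099 to 0.34, Rabep1 1443856_at -0.24 to 0.11, Rabep1 1426023_a_at -0.15 to 0.30, Rab11fip2 1455169_at -0.014 to 0.57, Rab11fip2 1434948_at -0.11 to 0.77, Rab11fip5 1434314_s_at -0.074 to 0.059. The cause was not tested.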

Other observations

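The chromosomal neighbours of Rab4a and Rab4b were looked up after their values had been seen, by gene order in a RefSeq table of assembly GRCm38.p6. Of the 10 protein-coding genes on each side of Rab4a on chromosome 8, 13 were tested at the gene level. Their log2 differences between knockout and wild type ran from -0.26 to 0.30, with a median of 0.07. Without a block 0 of the 13 had an unadjusted limma p under 0.05, against 2.17% of all genes. With the replicate 1 arrays as a block it was also 0, against 8.32%. All knockout arrays lay on 1 side of all wild type arrays in 0 of the 13, against 7.46% of all genes. So few genes cannot show a departure from these shares. Rab4a itself was apart, as had been seen beforehand.

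Rab4b lies on chromosome 7, as does Akt2, with 17 protein-coding genes between them. Of these 10 were tested, with a median log2 difference of 0.02. Blvrb, biliverdin reductase B, was the only one with an unadjusted limma p under 0.05 (log2 1.06), where 2.17% of all genes had such a p. It was also the only one whose genotypes did not overlap, where 7.46% of all genes were apart. Rab4b, at -0.02, and its other tested neighbours on the Akt2 side had differences whose genotypes overlapped. No source used here gives the alleles that the knockout mice carry around Akt2.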
